A study of Mus musculus with 6 samples.

Results

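Mug1, Mug2 and Pzp encode alpha-macroglobulins, large proteinase inhibitors that hepatocytes secrete into plasma. In liver RNA of Trim24 knockout mice, Mug2 averaged 16.8 ± 9.4 CPM, against 870 ± 75 CPM in wild type liver. Its close paralog Mug1 averaged 7197 ± 934 CPM in knockout and 12115 ± 715 CPM in wild type, and Pzp averaged 10690 ± 868 CPM in knockout and 10979 ± 1167 CPM in wild type (SD, n = 3 libraries each). CPM are counts per 1000000 reads in the tested genes of a library, scaled by its TMM factor (a correction for the makeup of the library). The 3 genes were found by symbol among the 23284 genes counted in each library, and all 3 passed the filter on low counts, as did 9180 genes in all. They were selected on earlier results from these same libraries, in which the knockout and wild type read counts were known. The difference between knockout and wild type in the members is therefore given as a description, with no test.

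The livers were from C57BL6/J mice aged 8 weeks. Libraries KO1 to KO3 came from homozygous Trim24 knockout mice (Trim24-/-), and libraries WT1 to WT3 from wild type mice. Trim24 encodes a cofactor of nuclear receptors, and the title of the series places it in work on fat storage and carcinoma of the liver. How the allele was made, the sex of the mice and whether the 3 libraries of a group came from separate mice are not given in the sources used here, so a p-value here reflects only how these libraries vary.

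An alpha-macroglobulin presents a stretch of its chain, the bait region, to a proteinase. Cutting of the bait makes the inhibitor fold around the proteinase and opens an internal thioester bond that can tie the pair together covalently, and the complex is then taken up through the receptor encoded by Lrp1. Murinoglobulins circulate in mouse plasma as single chains, whereas Pzp makes the tetrameric inhibitor of the mouse. In the rat, the counterpart of the murinoglobulins is a negative acute-phase protein, one that falls in inflammation. The bases around the thioester codons show how close the members are at this site alone. They are given 5′ to 3′ on the coding strand, from the GENCODE M21 transcripts on GRCm38, with the thioester codons in capitals.
Mug1: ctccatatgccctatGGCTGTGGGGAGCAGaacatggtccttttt
Mug2: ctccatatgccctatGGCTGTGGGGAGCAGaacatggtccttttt
Pzp: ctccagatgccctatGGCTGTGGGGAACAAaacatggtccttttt
The Mug1 site lies at chr6:121878952-121878996 on the plus strand, the Mug2 site at chr6:122075186-122075230 on the plus strand and the Pzp site at chr6:128491587-128491631 on the minus strand. All 3 sites are coding. Over these 45 bases Mug1 and Mug2 carry the same letters, and the letters of Pzp differ from theirs before and inside the thioester codons.

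Reads counted in genes numbered 1607276, 1754269 and 2872421 in KO1, KO2 and KO3, and 1495583, 1597540 and 1732309 in WT1, WT2 and WT3. These were 4.74% to 6.69% of the counted reads in the knockout libraries and 4.22% to 5.40% in the wild type libraries. A count of 3, the limit that a count of 0 allows, was worth 1.04 to 1.86 CPM in knockout and 1.78 to 2.10 CPM in wild type libraries, and covers counting error only. Trim24 checked the labels, with counts of 3, 2 and 2 in KO1, KO2 and KO3 against 31, 45 and 44 in WT1, WT2 and WT3. In edgeR's quasi-likelihood test, 526 of the 9180 tested genes (5.73%) had a p under 0.05 after Benjamini-Hochberg adjustment and are said to be called, 283 (3.08%) higher and 243 (2.65%) lower in knockout. The knockout and wild type values did not overlap in 2295 genes (25.0%). Of the 3 members, 2 (Mug1 and Mug2) were among the genes called lower, Mug1 no longer so when WT2 was left out. The same 2 had values that did not overlap. Nothing is read from those counts, since the same contrast was known when the members were chosen.

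Mug2 (chr6:122006761-122085965, plus strand, 35 exons) had counts of 14, 27 and 78 in KO1, KO2 and KO3, against 1288, 1399 and 1321 in WT1, WT2 and WT3. Scaled, these were 8.67, 14.7 and 27.1 CPM in the knockout libraries and 900, 925 and 784 CPM in the wild type libraries. Every knockout library was far below every wild type library, and the knockout libraries differed more among themselves, in proportion, than the wild type libraries did. The fitted log2 fold change, knockout over wild type, was -5.61 (SE 0.30), and the knockout mean was 1.93% of the wild type mean. By mean CPM, Mug2 ranked 6164 among all 23284 genes in knockout and 154 in wild type. All 3 knockout libraries stayed above the limit that a count of 0 allows, so reads assigned to Mug2 remained in each of them.

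Mug1 (chr6:121838541-121889057, plus strand, 36 exons) was among the most abundant transcripts of the liver in both genotypes. Its counts were 13112, 11520 and 20755 in KO1, KO2 and KO3, against 17493, 19313 and 19121 in WT1, WT2 and WT3. After scaling, KO1, KO2 and KO3 held 8120, 6252 and 7221 CPM, and WT1, WT2 and WT3 held 12219, 12772 and 11354 CPM. The groups did not overlap on the CPM scale, although the raw count of the deepest library, KO3, was the highest of all. The log2 fold change was -0.75 (SE 0.15), so the knockout mean stood at 59.4% of the wild type mean. Mug1 ranked 13 by mean CPM in knockout and 6 in wild type. In absolute terms the difference of the means, knockout minus wild type, was -4918 CPM for Mug1 and -853 CPM for Mug2, although the difference of Mug2 was much larger in proportion.

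Pzp (chr6:128483567-128526720, minus strand, 36 exons) had counts of 16666, 21524 and 28939 in KO1, KO2 and KO3, against 16683, 17620 and 16221 in WT1, WT2 and WT3. These came to 10320, 11681 and 10068 CPM in the knockout libraries and 11653, 11653 and 9632 CPM in the wild type libraries. The 2 sets of values overlapped, with the highest value in KO2 and the lowest in WT3. The log2 fold change of Pzp was -0.04 (SE 0.15), and over the alternative settings it lay between -0.13 and 0.09, so neither direction held. A value near 0 with this error does not show that the level was the same in both genotypes. It ranked 5 by mean CPM in knockout and 7 in wild type.

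**Figure D1:**
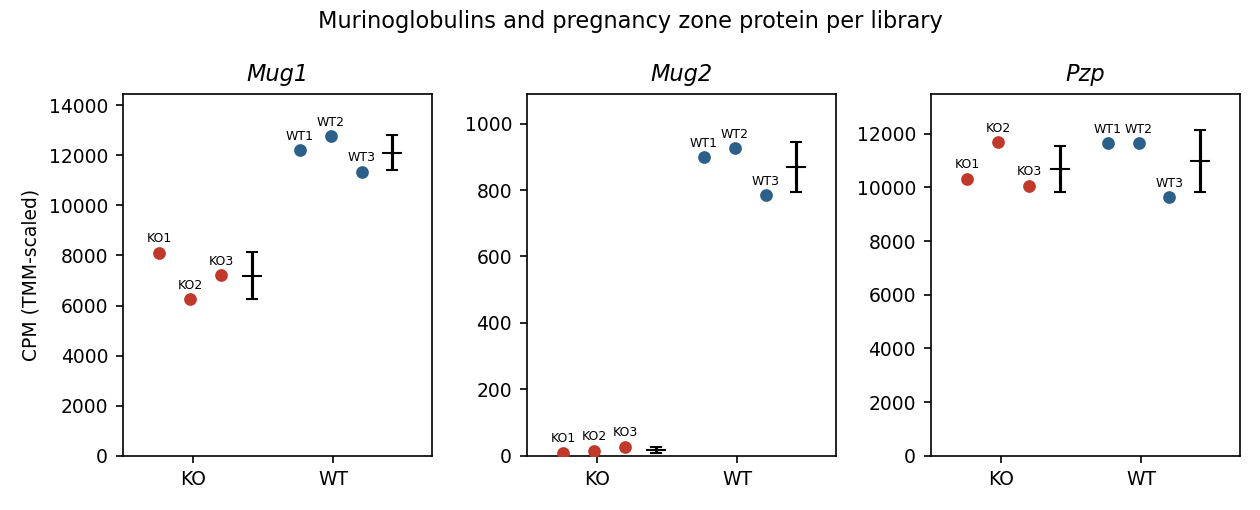
Levels of Mug1, Mug2 and Pzp in each library, in TMM-scaled CPM, with KO1 to KO3 in red and WT1 to WT3 in blue. The bars give the mean and SD of 3 libraries. Mug2 lies between 8.67 and 27.1 CPM in knockout and between 784 and 925 CPM in wild type, Mug1 is lower in every knockout library than in any wild type library, and the values of Pzp overlap.

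Within a library, a ratio of paralogs does not depend on depth or scaling. Mug2 reads made up 0.107%, 0.234% and 0.374% of the Mug1 and Mug2 reads in KO1, KO2 and KO3, with exact 95% binomial intervals of 0.0583% to 0.179%, 0.154% to 0.340% and 0.296% to 0.467%. In WT1, WT2 and WT3 the share was 6.86% (6.50% to 7.23%), 6.75% (6.42% to 7.10%) and 6.46% (6.13% to 6.81%). The intervals of all wild type libraries overlapped each other, and those of KO1 and KO3 did not. There were 937, 427 and 266 Mug1 reads for each Mug2 read in KO1, KO2 and KO3, and 13.6, 13.8 and 14.5 in WT1, WT2 and WT3. The mean log2 ratio of Mug2 to Mug1 was -8.86 ± 0.90 in knockout and -3.80 ± 0.05 in wild type (SD, n = 3 each), a difference of -5.06. The difference between genotypes was thus unequal in the 2 murinoglobulins, and this too is a description of genes chosen with that contrast known.

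Pzp and Mug1 exchanged their order in read counts. Pzp had 1.27, 1.87 and 1.39 reads for each Mug1 read in KO1, KO2 and KO3, against 0.954, 0.912 and 0.848 in WT1, WT2 and WT3. The ratio was above 1 in every knockout library and below 1 in every wild type library. Its mean was 1.51 ± 0.32 in knockout and 0.905 ± 0.053 in wild type (SD, n = 3 each). Taken as a family, the members held 1.85%, 1.89% and 1.73% of the reads in genes in KO1, KO2 and KO3, and 2.37%, 2.40% and 2.12% in WT1, WT2 and WT3. Pzp alone held 1.09% ± 0.12 of the reads in knockout and 1.05% ± 0.10 in wild type, and Mug1 held 0.732% ± 0.080 in knockout and 1.16% ± 0.05 in wild type.

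**Figure D2:**
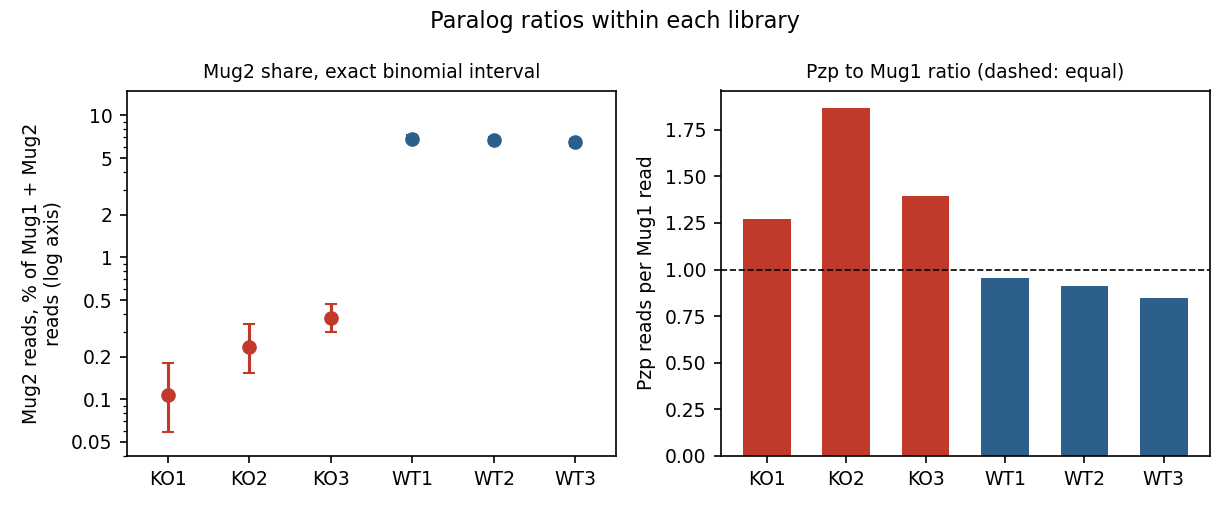
Left, Mug2 reads as a percentage of Mug1 plus Mug2 reads in each library on a log axis, with exact 95% binomial intervals. Right, Pzp reads for each Mug1 read, with a dashed line at equal counts. Knockout libraries (red) lie at 0.107% to 0.374% on the left and above 1 on the right, and wild type libraries (blue) at 6.46% to 6.86% on the left and below 1 on the right.

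To compare levels between the genes, CPM were divided by the length of the longest coding transcript, which was 4657 bases for Mug1, 4579 for Mug2 and 4681 for Pzp. On this scale of CPM per kb, knockout livers had 2284 ± 185 for Pzp, 1546 ± 201 for Mug1 and 3.67 ± 2.06 for Mug2. Wild type livers had 2602 ± 153 for Mug1, 2346 ± 249 for Pzp and 190 ± 16 for Mug2. In knockout the levels of Pzp and Mug1 did not overlap, at 2151 to 2496 and 1343 to 1744 CPM per kb. In wild type they did, at 2058 to 2490 for Pzp and 2438 to 2743 for Mug1, so the ranges of the 2 genes were not apart there, although Mug1 was above Pzp within each wild type library. Mug2 was the lowest of the 3 in every library.

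These levels depend on how reads that fit more than 1 gene were counted. The counter's total for reads without a unique place was 0 in all files, and no source used here states the read length. Of the 50-base stretches of the Mug1 transcript, 32.9% also occurred in a transcript of another gene. The share was 50.5% for Mug2 and 4.47% for Pzp. At 100 bases it was 7.90% for Mug1, 27.1% for Mug2 and 2.34% for Pzp. Most of the sharing of Mug2 at 50 bases was with the pseudogene Mug-ps1 (37.1% of its stretches) and with Mug1 (21.3%). Divided by the unshared 50-base positions alone, Mug1 came to 2326 in knockout and 3916 in wild type, Mug2 to 7.50 in knockout and 388 in wild type, and Pzp to 2416 in knockout and 2481 in wild type, in CPM per kb. On that scale the ranges of Mug1 and Pzp overlapped in knockout (2021 to 2624 and 2275 to 2640), where Mug1 was above Pzp in KO1 and KO3 and below it in KO2. In wild type the ranges were apart, at 3670 to 4128 for Mug1 and 2177 to 2634 for Pzp. The fold change of each gene is the same on both scales, but what part of the change in any of the near-identical genes came from reads shared with another was not tested.

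Mug1 and Mug2 are near copies, and Pzp is a more distant relative. Their coding sequences, 4431 bases in Mug1 and 4356 in Mug2, were the same at 4138 of 4350 aligned bases (95.1%), with 81 bases in Mug1 only and 6 in Mug2 only. Mug1 and Pzp, with 4488 coding bases, were the same at 65.6% of aligned bases, and Mug2 and Pzp at 65.0%. A2m, the alpha-2-macroglobulin gene, was the same as Mug1 at 70.0% of aligned bases. Gm7298, a further near copy, was the same as Mug1 at 93.8% of aligned coding bases and as Mug2 at 93.4%. In 1372 windows of 60 aligned coding bases, the median identity of Mug1 and Mug2 was 96.7%, and 224 windows (16.3%) were the same in every base. The lowest identity among these windows, none of which holds a gap between Mug1 and Mug2, was 68.3%. It was found in coding bases 2074 to 2133 of Mug1 and equally in the next, overlapping window. For Mug1 with Pzp, a Mug1 base opposite a gap in Pzp counted as different. The first of the lowest windows was 43.3% identical between Mug1 and Pzp, against a median of 63.3% over the windows. It is shown because its letters tell the 2 murinoglobulins apart at many bases. Capitals mark the bases that differ between them.
Mug1: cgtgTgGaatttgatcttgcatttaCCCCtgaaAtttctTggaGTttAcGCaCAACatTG
Mug2: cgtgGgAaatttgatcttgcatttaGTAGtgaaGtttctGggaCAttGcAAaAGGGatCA
The Mug1 window is at chr6:121873620-121873679 and the Mug2 window at chr6:122063560-122063619, both coding and on the plus strand of GRCm38. They differ at 19 of the 60 bases. The bait region is known as the most variable stretch among alpha-macroglobulins, and whether the window lies in it was not tested.

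**Figure D3:**
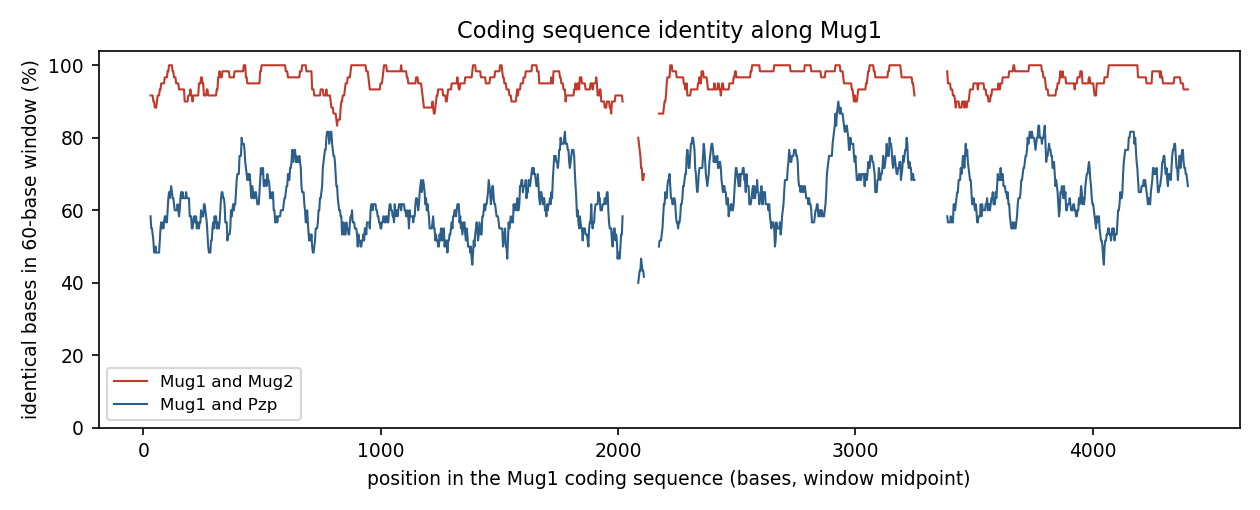
Percentage of identical bases in windows of 60 bases along the Mug1 coding sequence (window midpoint in bases), for Mug1 with Mug2 (red) and Mug1 with Pzp (blue). Windows with a gap between Mug1 and Mug2 are left out, which leaves breaks in the lines. A Mug1 base opposite a gap in Pzp counts as different. Mug1 and Mug2 stay near the median of 96.7% with a low point of 68.3%, and Mug1 and Pzp lie around 63.3%.

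The similarity of Mug1 and Mug2 extended upstream. The stretches before the annotated starts, taken from the RefSeq promoter table on GRCm38.p6 and ended before any annotated exon, are shown so that the bases before the 2 paralogs can be compared. They are written 5′ to 3′ on the strand of the gene, and capitals mark where Mug1 and Mug2 differ or where 1 of them has extra bases inside the aligned part.
Mug1: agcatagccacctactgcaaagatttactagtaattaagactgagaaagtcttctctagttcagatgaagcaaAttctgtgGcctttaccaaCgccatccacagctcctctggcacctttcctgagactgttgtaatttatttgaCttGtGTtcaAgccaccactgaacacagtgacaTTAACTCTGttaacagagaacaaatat
Mug2: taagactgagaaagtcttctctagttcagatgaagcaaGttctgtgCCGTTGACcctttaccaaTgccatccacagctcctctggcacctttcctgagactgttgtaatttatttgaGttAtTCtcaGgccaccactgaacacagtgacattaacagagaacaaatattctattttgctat
Pzp: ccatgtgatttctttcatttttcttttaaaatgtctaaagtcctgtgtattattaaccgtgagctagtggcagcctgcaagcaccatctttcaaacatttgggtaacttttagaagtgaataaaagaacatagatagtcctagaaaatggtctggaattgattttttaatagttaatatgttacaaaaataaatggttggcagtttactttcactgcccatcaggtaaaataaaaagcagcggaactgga
The Mug1 stretch is chr6:121838291-121838495, the Mug2 stretch is chr6:122006548-122006728, both on the plus strand, and the Pzp stretch is chr6:128526721-128526970 on the minus strand. Mug1 and Mug2 were the same at 153 of 161 aligned bases (95.0%), with 9 bases in Mug1 only and 7 in Mug2 only. Motifs were searched on both strands in the 300-base window around each RefSeq start. The STAT-type letters TTCNNNNGAA occurred once in the window of Mug1 and once in that of Mug2, and not in that of Pzp, beside 6.95% of all 32851 windows. The shorter form TTCNNNGAA (8.30% of windows), the nuclear receptor letters AGGTCA (16.3%) and TATAAA (13.6%) were in none of the 3. The letters CCAAT were found in Mug2 only (37.4% of windows) and GTTAAC in Mug1 only (3.05%). The match in both murinoglobulins reads ttcagatgaa, and the GTTAAC of Mug1 begins at the last capital of the bases that Mug2 lacks. The motifs were counted separately, whether or not they overlapped, and a match describes the letters alone.

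All members lie on chromosome 6, which also carries Trim24. Trim24 is 83.9 Mb from Mug1, 84.0 Mb from Mug2 and 90.5 Mb from Pzp. Mug1 and Mug2 are 0.118 Mb apart, and Pzp lies 6.40 Mb beyond Mug2. Within 1 Mb of a member, 23 other genes were tested, of which 3 were called higher and 2 lower by edgeR's quasi-likelihood test, beside 5.73% of all tested genes. Their median log2 fold change was -0.04, against 0.01 over all tested genes.

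The 2 neighbours that fell are murinoglobulin pseudogenes that lie beyond Mug2. Gm10319 (0.0507 Mb from Mug2) had counts of 32, 38 and 46 in KO1, KO2 and KO3, against 75, 92 and 100 in WT1, WT2 and WT3. It averaged 18.8 ± 2.5 CPM in knockout and 57.5 ± 4.5 CPM in wild type (SD, n = 3 each). Its log2 fold change was -1.63 with SE 0.19 and an adjusted p of 0.00031 by edgeR, and it stayed called in every alternative. Mug-ps1 (0.0901 Mb from Mug2) had counts of 74, 81 and 194 in the knockout libraries, against 157, 160 and 145 in the wild type libraries. It averaged 52.4 ± 13.1 CPM in knockout and 100.5 ± 12.6 CPM in wild type, a log2 fold change of -0.92 (SE 0.19, edgeR adjusted p = 0.012), and the call was lost without KO2, WT1 or WT2 (up to 0.058). Neither gene had overlapping groups in CPM. The aligned part of the Mug-ps1 transcript was 96.8% identical to Mug2 and 95.5% to Mug1, and that of Gm10319 was 97.1% identical to Mug2 over 856 bases. Only part of these transcripts is shared. At 50 bases, 17.1% of the stretches of Gm10319 and 30.9% of those of Mug-ps1 also occurred in Mug2. Reads that fit both Mug2 and a pseudogene cannot be told apart in the deposited counts, and their part in these changes was not tested.

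The neighbours that rose are known from other settings. Usp18 encodes the protease that removes ISG15 and is induced by interferon. It averaged 34.9 ± 15.9 CPM in knockout and 4.56 ± 0.37 CPM in wild type, with a log2 fold change of 2.94 (SE 0.40, edgeR adjusted p = 0.00074). Apobec1, the cytidine deaminase that edits the Apob transcript, averaged 88.4 ± 37.4 CPM in knockout and 34.4 ± 15.7 CPM in wild type, with a log2 fold change of 1.4 (SE 0.32, edgeR adjusted p = 0.022). Clec7a, the beta-glucan receptor Dectin-1 of myeloid cells, averaged 16.1 ± 2.8 CPM in knockout and 6.12 ± 2.96 CPM in wild type, with a log2 fold change of 1.38 (SE 0.35, edgeR adjusted p = 0.033). Usp18 stayed called in every alternative. The call of Apobec1 was lost without KO2, KO3, WT2 or WT3 (edgeR adjusted p up to 0.12), and that of Clec7a without KO2, KO3, WT1 or WT2 or when KO2 stood alone for the knockout (up to 0.13), a setting in which the wild type libraries alone supply the spread. Other neighbours, such as M6pr with 225 ± 30 CPM in knockout and 210 ± 28 CPM in wild type, and Fkbp4, 0.0449 Mb from Pzp, with 241 ± 64 CPM in knockout and 167 ± 18 CPM in wild type, did not pass the test. The transporters Slc6a13 and Slc6a12, on the far side of Mug1, had log2 fold changes of -0.45 and -0.49 and did not pass it either. The lectin-like receptor genes Clec2h, Clec2d, Clec1b, Clec9a and Clec1a near Pzp also missed the threshold, with log2 fold changes of -0.25 to 0.80.

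**Figure D4:**
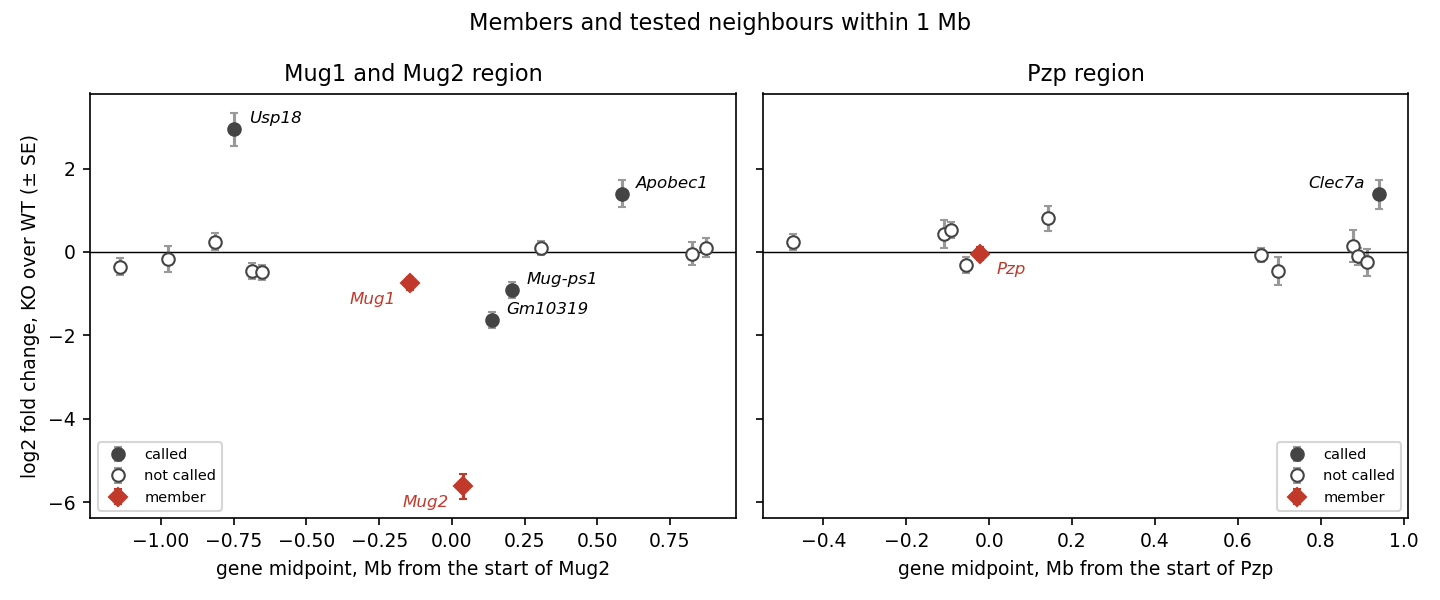
Log2 fold change (knockout over wild type, ± SE) of the members (red diamonds) and of the tested genes within 1 Mb, by distance of the gene midpoint from the start of Mug2 (left) or of Pzp (right). Filled circles were called. Mug2 at -5.61 lies far below its neighbours, Gm10319 and Mug-ps1 next to it at -1.63 and -0.92, and Usp18 is highest at 2.94.

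Gm10069 overlaps Pzp on the opposite strand, with 303 shared exonic bases (4.72% of the exonic bases of Pzp). It averaged 1152 ± 137 CPM in knockout and 1426 ± 399 CPM in wild type and did not pass the test (log2 fold change -0.31). Across the 6 libraries its log2 CPM had r = 0.77 with that of Pzp. No source used here states the strand setting, so reads of the 2 genes in the shared bases cannot be told apart.

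Relatives of the members in the thioester protein family, among them complement proteins and the pseudogene Mug-ps1, were listed with them. Of 11 listed genes other than the members, 8 were in the table and 5 were tested, with 1 called higher and 1 (Mug-ps1) lower. The pseudogene Gm10319, described above, was not on this list. The median log2 fold change was 0.23, against 0.01 over all tested genes. C4a, a copy of complement factor C4, averaged 118 ± 11 CPM in knockout and 30.1 ± 2.9 CPM in wild type, with a log2 fold change of 1.96 (SE 0.16, edgeR adjusted p = 1.5e-05). Its near-identical copy C4b averaged 1124 ± 133 CPM in knockout and 1187 ± 478 CPM in wild type, so the split of reads between them is uncertain. C3, the central complement protein, averaged 8628 ± 1083 CPM in knockout and 7341 ± 751 CPM in wild type, and Hc, which encodes complement C5, averaged 2238 ± 358 CPM in knockout and 1584 ± 412 CPM in wild type. Neither passed the test, nor did C4b. A2m was nearly silent, with counts of 0, 2 and 3 in KO1, KO2 and KO3 and of 0, 1 and 0 in WT1, WT2 and WT3. The A2m-like gene BC048546 had counts of 4, 9 and 9 in knockout and 2, 2 and 4 in wild type libraries, and Cd109 counts of 0, 2 and 0 in knockout and 0 in every wild type library.

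Receptors and clearance genes came next along the pathway. Of 5 tested, 2 were called higher and none lower, with a median log2 fold change of 0.41. Lrp1, the main receptor for alpha-macroglobulin complexes, averaged 1054 ± 137 CPM in knockout and 1219 ± 86 CPM in wild type and did not pass the test (log2 fold change -0.21). Lrp2, the related receptor megalin, averaged 11.0 ± 0.6 CPM in knockout and 1.14 ± 1.06 CPM in wild type, with a log2 fold change of 3.27 (SE 0.55, edgeR adjusted p = 0.0034). The counts of Lrp2 were 3, 2 and 0 in WT1, WT2 and WT3, none above the limit that a count of 0 allows. Hspa5, a chaperone of the endoplasmic reticulum that also binds activated alpha-2-macroglobulin at the cell surface, averaged 2077 ± 228 CPM in knockout and 1290 ± 162 CPM in wild type, with a log2 fold change of 0.69 (SE 0.16, edgeR adjusted p = 0.022). The call of Hspa5 was lost without KO2, WT2 or WT3 (edgeR adjusted p up to 0.13), and that of Lrp2 when KO2 was the only knockout library (0.050). The growth factors and cytokines that alpha-macroglobulins carry showed 0 calls by edgeR, DESeq2 or limma-voom among 4 tested genes, 2 of them with an unadjusted edgeR p under 0.05 (median 0.07). Vegfa averaged 110 ± 13 CPM in knockout and 86.3 ± 6.6 CPM in wild type.

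Of the proteinases that alpha-macroglobulins trap, 7 were tested, and Klkb1 alone was called, lower in knockout (median of the list 0.02). Klkb1 encodes plasma prekallikrein and averaged 350 ± 80 CPM in knockout and 591 ± 31 CPM in wild type, with a log2 fold change of -0.76 (SE 0.18, edgeR adjusted p = 0.023). This call was lost without any single library other than KO1. Of 29 tested plasma proteinase inhibitors of other families, 2 were called higher and none lower, with a median of 0.11. Serpina3n, an acute-phase serpin, averaged 1396 ± 356 CPM in knockout and 632 ± 233 CPM in wild type (log2 fold change 1.14, edgeR adjusted p = 0.015). Serpina10, the protein Z-dependent inhibitor, averaged 206 ± 5 CPM in knockout and 126 ± 17 CPM in wild type (log2 fold change 0.71, edgeR adjusted p = 0.015). Both calls were lost without WT1 or WT3, that of Serpina3n also without KO2 and that of Serpina10 also when KO2 stood alone for the knockout.

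Genes of the acute-phase response were described beside the murinoglobulins. Of 14 tested negative acute-phase genes 0 were called by edgeR's quasi-likelihood test, by DESeq2 or by limma-voom, 4 had an unadjusted edgeR p under 0.05, and the median log2 fold change was -0.32. Alb, at 67049 ± 14342 CPM in knockout and 82569 ± 6837 CPM in wild type, had a log2 fold change of -0.30 and overlapping groups, and Trf, which encodes transferrin, one of -0.18. Mug1 at -0.75 (SE 0.15) and Mug2 at -5.61 were below every tested gene of that list, and Pzp at -0.04 was above its median. The lowest value of the list was -0.67 for Apoa2, at 735 ± 363 CPM in knockout and 1171.5 ± 46.6 CPM in wild type. The members were chosen with this contrast known, so nothing is read from their place beside the list. Of 25 tested positive acute-phase genes, 5 were called higher and 1 lower, with a median of 0.49. The lower one was Crp, at 539 ± 83 CPM in knockout and 861 ± 178 CPM in wild type (log2 fold change -0.68, edgeR adjusted p = 0.044). That call was lost with scaling by total reads, among other alternatives. Steap4, a metalloreductase induced in inflammation, averaged 644 ± 204 CPM in knockout and 212 ± 19 CPM in wild type (log2 fold change 1.61, edgeR adjusted p = 0.00061). Saa3, a serum amyloid A gene, averaged 15.7 ± 4.0 CPM in knockout and 2.13 ± 0.82 CPM in wild type (log2 fold change 2.81, edgeR adjusted p = 0.0013). The counts of Saa3 were only 3, 2 and 5 in WT1, WT2 and WT3. Lcn2, which encodes lipocalin 2, averaged 56.4 ± 59.8 CPM in knockout and 6.46 ± 4.33 CPM in wild type (log2 fold change 3.09, edgeR adjusted p = 0.022), a call lost in limma-voom and without WT1 or WT3.

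Signalling genes and transcription factors that act on liver-secreted proteins came next. Beside 5.73% of all tested genes, of 11 tested genes listed for IL-6 and STAT3 signalling, 2 were called higher and none lower (median 0.02). That list also holds interleukin-1 receptor genes. Il1r1, the interleukin-1 receptor, averaged 181 ± 69 CPM in knockout and 82.7 ± 10.5 CPM in wild type, and Socs3, the feedback inhibitor of STAT3, averaged 19.9 ± 12.4 CPM in knockout and 4.78 ± 2.16 CPM in wild type with overlapping groups. Their edgeR adjusted p-values were 0.017 for Il1r1, lost without KO2, WT2 or WT3, and 0.029 for Socs3. Of 10 tested genes of growth hormone signalling, Stat5b alone was called. It averaged 33.9 ± 3.9 CPM in knockout and 57.7 ± 6.3 CPM in wild type (log2 fold change -0.77, edgeR adjusted p = 0.022), and the median of the list was -0.05. Of 14 tested liver transcription factors, Cebpa alone was called, at 114 ± 13 CPM in knockout and 170 ± 16 CPM in wild type (log2 fold change -0.58, edgeR adjusted p = 0.044, median of the list -0.22). The calls of Socs3, Stat5b and Cebpa were each lost without most of the single libraries. That of Socs3 was also lost in limma-voom (adjusted p = 0.13), and that of Cebpa with scaling by total reads (0.08).

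**Figure D5:**
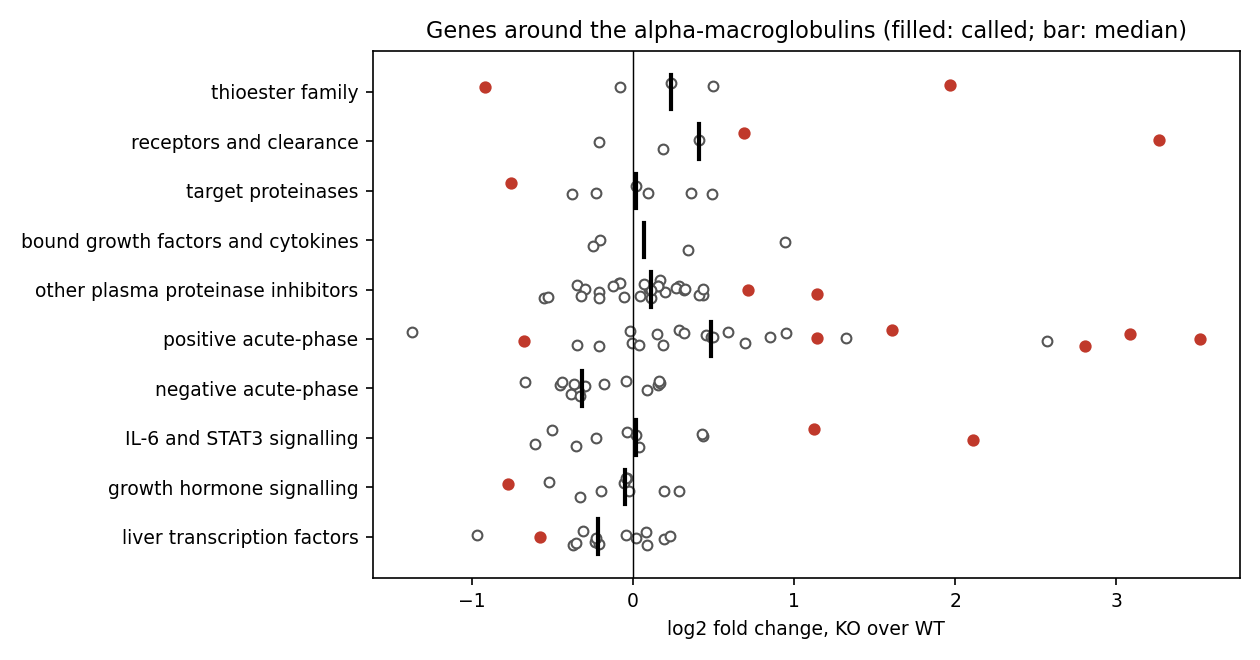
Log2 fold change (knockout over wild type) of every tested gene in 10 lists around the alpha-macroglobulins. Filled points were called by edgeR's quasi-likelihood test and black bars give the list median, which is lowest for the negative acute-phase genes (-0.32) and highest for the positive acute-phase genes (0.49).

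The cell type markers describe what else was in the tissue. Of 15 tested hepatocyte markers, Cyp2e1 alone was called, lower at 2955 ± 974 CPM in knockout and 6708 ± 176 CPM in wild type, and the list median was -0.19. The hepatocyte markers summed to 94661 to 125100 CPM in knockout and 134270 to 143210 CPM in wild type libraries, with no marker at 0 in all libraries. In a bulk sample, fewer hepatocytes and less RNA of a gene for each hepatocyte cannot be told apart. Kupffer cell markers summed to 302 to 560 CPM in knockout and 188 to 336 CPM in wild type libraries (2 of 11 tested called higher, C1qc and Mpeg1), and stellate cell markers to 654 to 767 CPM in knockout and 499 to 529 CPM in wild type libraries (2 of 7 called higher, Dcn and Col1a2). Endothelial markers were mixed, with 1 of 10 tested called higher (Tek) and 2 lower (Stab2 and Ehd3). Of 2 cholangiocyte and 2 red blood cell markers tested, 0 were called by edgeR, DESeq2 or limma-voom and 0 had an unadjusted edgeR p under 0.05, and of the lymphocyte and neutrophil markers Csf3r alone was tested and called higher. Of the calls in these lists, those of Cyp2e1 and Tek held in every alternative with more than 1 library in each group. Those of Stab2 (without WT2 or WT3), Ehd3 (without KO2, WT1 or WT3), C1qc, Mpeg1, Dcn and Col1a2 were lost on leaving out some single libraries, and that of Csf3r was lost in DESeq2, in limma-voom and without any single library other than KO1 (adjusted p up to 0.18 by edgeR). Pancreatic acinar markers summed to 1070, 14.1 and 695 CPM in KO1, KO2 and KO3, and the sums of WT1, WT2 and WT3 were 39.1, 15.9 and 12.5 CPM. Among them Cela1 alone was tested, and it was called higher with overlapping groups (edgeR adjusted p = 0.046). That call was lost in DESeq2, in limma-voom and without any single library other than KO2. In KO2, where the acinar sum was at the wild type level, Mug2 was at 14.7 CPM and Mug1 at 6252 CPM, the lowest of the knockout libraries. When KO2 stood alone for the knockout, the log2 fold changes were -5.89 for Mug2, -0.96 for Mug1 and 0.09 for Pzp. The part of any of these markers, acinar ones included, in the values of the members was not tested.

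Liver genes with a known sex bias were listed because plasma proteins of the mouse liver often differ between sexes. Of 11 tested male-biased genes, 2 were called higher (Cyp7b1 and Mup20) and 2 lower (Slco1a1 and Elovl3), with a median log2 fold change of -0.32. Mup20, a major urinary protein, averaged 10509 ± 1018 CPM in knockout and 6591 ± 533 CPM in wild type, and Slco1a1, an organic anion transporter, averaged 534 ± 102 CPM in knockout and 928 ± 34 CPM in wild type. Of 4 tested female-biased genes, Cyp2b9 was called higher, at 8.36 ± 3.04 CPM in knockout and 0.664 ± 0.701 CPM in wild type. The calls of Mup20, Slco1a1, Cyp7b1 and Elovl3 were each lost without at least WT3, and that of Cyp2b9 with KO2 as the only knockout library. The Y-linked gene Ddx3y averaged 212 ± 29 CPM in knockout and 171 ± 22 CPM in wild type. Xist, the transcript of the inactive X chromosome, averaged 26.3 ± 17.3 CPM in knockout and 21 ± 8.5 CPM in wild type. Of 5 tested sex-linked transcripts 0 were called by edgeR, DESeq2 or limma-voom and 1 had an unadjusted edgeR p under 0.05.

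The genes whose log2(CPM + 1) followed each member most closely over the 6 libraries were found by Pearson's r, as a description in which the points share the libraries and their genotypes. A gene that follows Mug1 or Mug2 also follows the genotypes. Its difference between knockout and wild type is therefore a description, and nothing is read from its call. For Mug1 these were Rdh16 (r = 0.998), Cyp4a12a (0.992), Car8 (0.992), Dcaf8 (0.991) and Gm3336 (0.991). Rdh16, a retinol dehydrogenase, averaged 57.5 ± 12 CPM in knockout and 122 ± 15 CPM in wild type (log2 fold change -1.09, SE 0.18). For Mug2 they were Tdrd3 (0.994), Elovl5 (0.993), Nxt2 (0.991), Dnajc28 (0.990) and Adcy9 (0.989). Elovl5, an elongase of polyunsaturated fatty acids, averaged 262 ± 47 CPM in knockout and 573 ± 32 CPM in wild type (log2 fold change -1.12, SE 0.17). For Pzp they were Usp12 (0.987), Arf3 (0.985), Prdx4 (0.981), Azgp1 (0.978) and Ppapdc1b (0.974), none of which was called in any setting. Cyp4a12a and Dcaf8 beside Mug1, and Tdrd3 and Dnajc28 beside Mug2, did not pass the test either. The calls of Gm3336, Nxt2 and Adcy9 were each lost without KO2, WT1, WT2 or WT3, those of Gm3336 and Adcy9 also in DESeq2.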

How the data were processed

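Per the labels' protocols, RNA was isolated from whole liver with TRIzol, reverse transcribed with SuperScript and sequenced after Illumina library preparation. The authors deposited read counts per gene symbol for each library without normalization. Per the submitters' processing notes, the tools were HTSeq, edgeR and TopHat 1.4.1 and the build was mm9, with no roles given. Strand setting and read length are not given in the sources used here. Reads in no gene (93.3% to 95.8% of counted reads) and ambiguous reads did not enter library sizes or tests, and 0 columns of per-sample values were left unused.

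The labelled genotype set the groups. The quasi-likelihood F test of edgeR 4.0.16 (R 4.3.3) was run with TMM factors and genotype alone, after filterByExpr at a minimum count of 10. Calls had an adjusted p under 0.05 (Benjamini-Hochberg over all tested genes). SE is the log2 fold change over the square root of F. Ratios of paralogs used counts plus 0.5 on the log2 scale. Intervals and floors cover counting error only. The code was tested on simulated counts.

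GENCODE M21 (GRCm38) gave positions and transcripts. It matched 97.7% of symbols, 1901 of them by an older name. Promoters came from RefSeq on GRCm38.p6. Because the notes name mm9, no coordinates come from the deposited files. Transcripts were aligned with Biopython 1.88. Tables and figures were made in Python 3.11.15 (matplotlib 3.10.9, scipy 1.17.1, pandas 2.3.3, numpy 2.4.6).

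The members and the 21 gene lists were chosen with earlier results of these data known. Named genes were the members, Trim24, the thioester family, the tested genes within 1 Mb, up to 4 called genes of each list by adjusted p (or the 2 most abundant where none was called) and the 5 genes most like each member. Lrp1, Apoa2, Crp and Xist lie outside that rule and were named after their values were seen. Alternatives were other scalings and filters, DESeq2 1.42.0, limma-voom (limma 3.58.1), a block on replicate number, leaving out each library and, added after seeing the data, KO2 as the only knockout library, where the spread comes from the wild type libraries alone and the lone library is assumed to vary like them.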

Additional observations from a re-analysis of the deposited data

How the results depend on the processing

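Mug2 stayed lower in knockout in all 14 alternatives, with log2 fold changes of -6.20 (without KO3) to -5.34 (without KO1), and Mug1 in all 14, from -0.85 to -0.65 with a library left out and -0.96 with KO2 as the only knockout library. Pzp ranged from -0.13 to 0.09 and changed sign with the scaling by total reads (0.06), among others. The difference in the Mug2 to Mug1 log2 ratio was -5.46 to -4.58 over 10 alternatives. Over all genes, 526 calls became 1085 without a filter, which tests more genes, and 222 (without WT3) to 772 (without KO1) with 1 library left out. Scaling by total reads gave 373 higher and 172 lower calls, against 283 and 243, and moved the median of all genes to 0.10. Calls in the gene lists (32, a gene in more than 1 list counting in each) were 74 without a filter and 10 to 46 with a library left out. Those among neighbours (5) were 2 to 8, and those in the thioester family (2) were 1 to 2. For these counts the cause was not tested.

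Replicate numbers do not pair the libraries: deviations of same-numbered libraries had r of -0.07, 0.08 and 0.03. With the replicate block, 295 genes were called higher and 250 lower, and calls in the lists, counted as above, numbered 40. Mug1, Mug2 and Pzp were at -0.76, -5.68 and -0.04. The low depth limits genes of few reads most: 3 counts were worth up to 2.10 CPM, which bears on Mug2 in KO1 (14 counts) and on A2m. It also bears on wild type values such as those of Lrp2, Saa3 and Cyp2b9 (counts of 2, 0 and 1 in WT1, WT2 and WT3). The size of their fold changes is uncertain.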
